A study of Mus musculus with 2 samples.

Results

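The genes described here are 2 myeloid growth factors, Csf1 and Csf2, and 6 receptor genes, Csf1r, Csf2ra, Csf2rb, Csf2rb2, Csf3r and Flt3. They were taken by name from the 24785 genes listed in the UMI tables of the BLM and the naive library, and all 8 had UMIs (unique molecular identifiers, 1 per captured transcript) in both. Living CD45+ cells, that is leukocytes, were sorted from lungs of C57BL/6N mice, and their transcripts were counted cell by cell with BD Rhapsody, a microwell platform. For the BLM library, mice aged 10 to 16 weeks received 50 µg of bleomycin into the trachea, which damages the lung and is followed by fibrosis, and cells were taken on day 15. The naive library came from untreated mice. Cells of 3 mice were pooled for each library, and cells were not assigned to mice. There was 1 library per group and hence no replicate, so differences below describe these 2 libraries, no test between groups was possible, and library preparation, sequencing and treatment cannot be told apart.

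Myeloid cells depend on secreted colony-stimulating factors. CSF1 (M-CSF) acts through the receptor tyrosine kinase CSF1R and maintains monocytes and macrophages, GM-CSF (the product of Csf2) is needed for the maturation of alveolar macrophages, G-CSF acts through CSF3R on neutrophils, and FLT3 with its ligand sustains dendritic cells. The GM-CSF receptor pairs a ligand-binding α chain (Csf2ra) with the common β chain (Csf2rb), which also serves the IL-3 and IL-5 receptors. Mice carry a second β chain gene, Csf2rb2, whose product serves IL-3. These receptors signal through JAK kinases and STAT factors or, for CSF1R and FLT3, through their own kinase domains, and SOCS family proteins and CIS (Cish) limit the STAT signal.

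After filtering, 4391 BLM cells (median 2380 UMIs) and 3808 naive cells (median 2700.5 UMIs) were kept, with 21199949 and 16890796 UMIs. The 2 tables shared 22 cell indices, of which 17 were among the kept cells. Cells were clustered without the 8 genes, and classes were named by markers, so that each name below means cells like that class. In 11 classes with 30 or more cells in each library the libraries were compared. These were neutrophils (999 BLM and 453 naive cells), alveolar macrophages (478 and 586), interstitial or recruited macrophages (489 and 126), classical monocytes (150 and 180), nonclassical monocytes (187 and 239), cDC1 (55 and 82) and cDC2 (55 and 85), which are the conventional dendritic cell classes, group 2 innate lymphoid cells (ILC2, 38 and 115), B cells (636 and 821), T-like cells (804 and 686) and NK cells (137 and 245). Smaller classes are given as values. The defining markers of these 11 classes were all detected in both libraries. A level sums the UMIs of a gene in all cells of a class and is expressed in CPM, per 1000000 UMIs of those cells. Brackets hold 95% intervals, which cover counting error only and treat UMIs as independent, although the UMIs of 1 cell are not. A difference was called past 2-fold where the log2 ratio of the BLM to the naive level was at least 1 in size and its interval left out 0, among genes with 20 or more UMIs over both libraries in that class.

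Of the 8 genes, 6 had an entry in the RefSeq promoter table (GRCm38.p6), and the promoter is shown for Csf1, Csf2rb2 and Flt3, whose RefSeq and GENCODE starts coincide. Their highest levels among the compared classes lay in neutrophils, alveolar macrophages and cDC1, respectively, so they stand for genes with different bearers. Each sequence is the 250 bases before the RefSeq start, written 5′ to 3′ on the strand of the gene. Capitals mark matches, on either strand, to the transcription factor motifs named below.
Csf1: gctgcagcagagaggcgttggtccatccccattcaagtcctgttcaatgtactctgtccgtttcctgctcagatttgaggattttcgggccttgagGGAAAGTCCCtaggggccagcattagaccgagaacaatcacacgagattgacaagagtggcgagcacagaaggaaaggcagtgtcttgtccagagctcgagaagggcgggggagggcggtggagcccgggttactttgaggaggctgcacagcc
Csf2rb2: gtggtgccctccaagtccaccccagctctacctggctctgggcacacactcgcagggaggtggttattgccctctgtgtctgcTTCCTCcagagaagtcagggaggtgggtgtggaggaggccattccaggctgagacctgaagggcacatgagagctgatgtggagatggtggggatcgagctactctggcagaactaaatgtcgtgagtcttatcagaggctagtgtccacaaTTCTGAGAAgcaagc
Flt3: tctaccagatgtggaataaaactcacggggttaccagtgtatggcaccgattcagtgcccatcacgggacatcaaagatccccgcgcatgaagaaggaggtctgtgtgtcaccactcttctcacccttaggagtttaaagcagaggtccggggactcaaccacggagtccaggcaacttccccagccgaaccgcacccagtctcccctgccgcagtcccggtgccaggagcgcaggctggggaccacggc

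The intervals are chr3:107760470-107760719 (minus strand) for Csf1, chr15:78305722-78305971 (minus) for Csf2rb2 and chr5:147400490-147400739 (minus) for Flt3. The motifs searched were GAGGAA (PU.1), TTNCNNAA (C/EBP), TGANTCA (AP-1), TTCNNNGAA (STAT5) and the NF-kB consensus. They occurred in 23.3%, 36.8%, 6.75%, 7.02% and 7.25% of 32851 promoter windows of the same length, respectively. The match in Csf1 was to NF-kB and began 154 bases before the start. Csf2rb2 held a PU.1 match 167 bases and a STAT5 match 15 bases before the start, and no 2 matches overlapped. Flt3 held no match. Matched letters are a description and do not show that a factor binds there. The genes lie at chr3:107741048-107760469 (Csf1), chr11:54247271-54249667 (Csf2), chr19:61223957-61228429 (Csf2ra), chr15:78325752-78353847 (Csf2rb), chr15:78282507-78305721 (Csf2rb2), chr4:126024550-126044440 (Csf3r) and chr5:147330741-147400489 (Flt3) in GRCm38. Csf2rb and Csf2rb2 are neighbours separated by 20030 bases. Their longest transcripts were 88.5% identical over 4790 aligned columns, and 6.96% of the 100-base windows of Csf2rb also occurred in Csf2rb2. In the last 500 bases, where 3′ capture places most reads, identity was 82.2% over 439 columns and no 100-base window was shared. How the authors' counting assigned reads that match both genes was not given in the sources used here, so the split between this pair is uncertain.

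Each gene had a narrow or a broad set of bearers, and the sets differed. Csf2 UMIs came mainly from ILC2 and Csf3r UMIs mainly from neutrophils, Csf1 was highest in neutrophils among the compared classes, Csf1r lay in monocytes and macrophages, the GM-CSF receptor chains lay across all myeloid classes, and Flt3 lay in dendritic cells. Of 88 comparisons (8 genes in 11 classes), 55 had the 20 UMIs required. The level was past 2-fold higher in the BLM library in 8 of them and past 2-fold lower in 2, that is 14.5% and 3.64%. Over all genes tested in the same 11 classes these shares were 3.29% and 5.51%. Csf2rb accounted for 4 of the 8, and Csf1, Csf2, Csf1r and Csf2rb2 for 1 each, whereas the 2 lower ones were Csf3r and Flt3. The Csf1 call, in alveolar macrophages, rested on 25 and 10 UMIs and is read as background below. Those of Csf1r, Csf2rb2 and Csf3r, and that of Csf2rb in interstitial or recruited macrophages, lie in the macrophage classes, whose limit is given below. Intervals lay above 0 in 18 and below 0 in 10 of the 55. The share of all genes past 2-fold within a class is given below once for each class. The median log2 ratio of all genes was −0.20 in alveolar macrophages and −0.11 in neutrophils and in NK cells, and it lay within 0.1 of 0 in the other 8 classes.

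**Figure D1:**
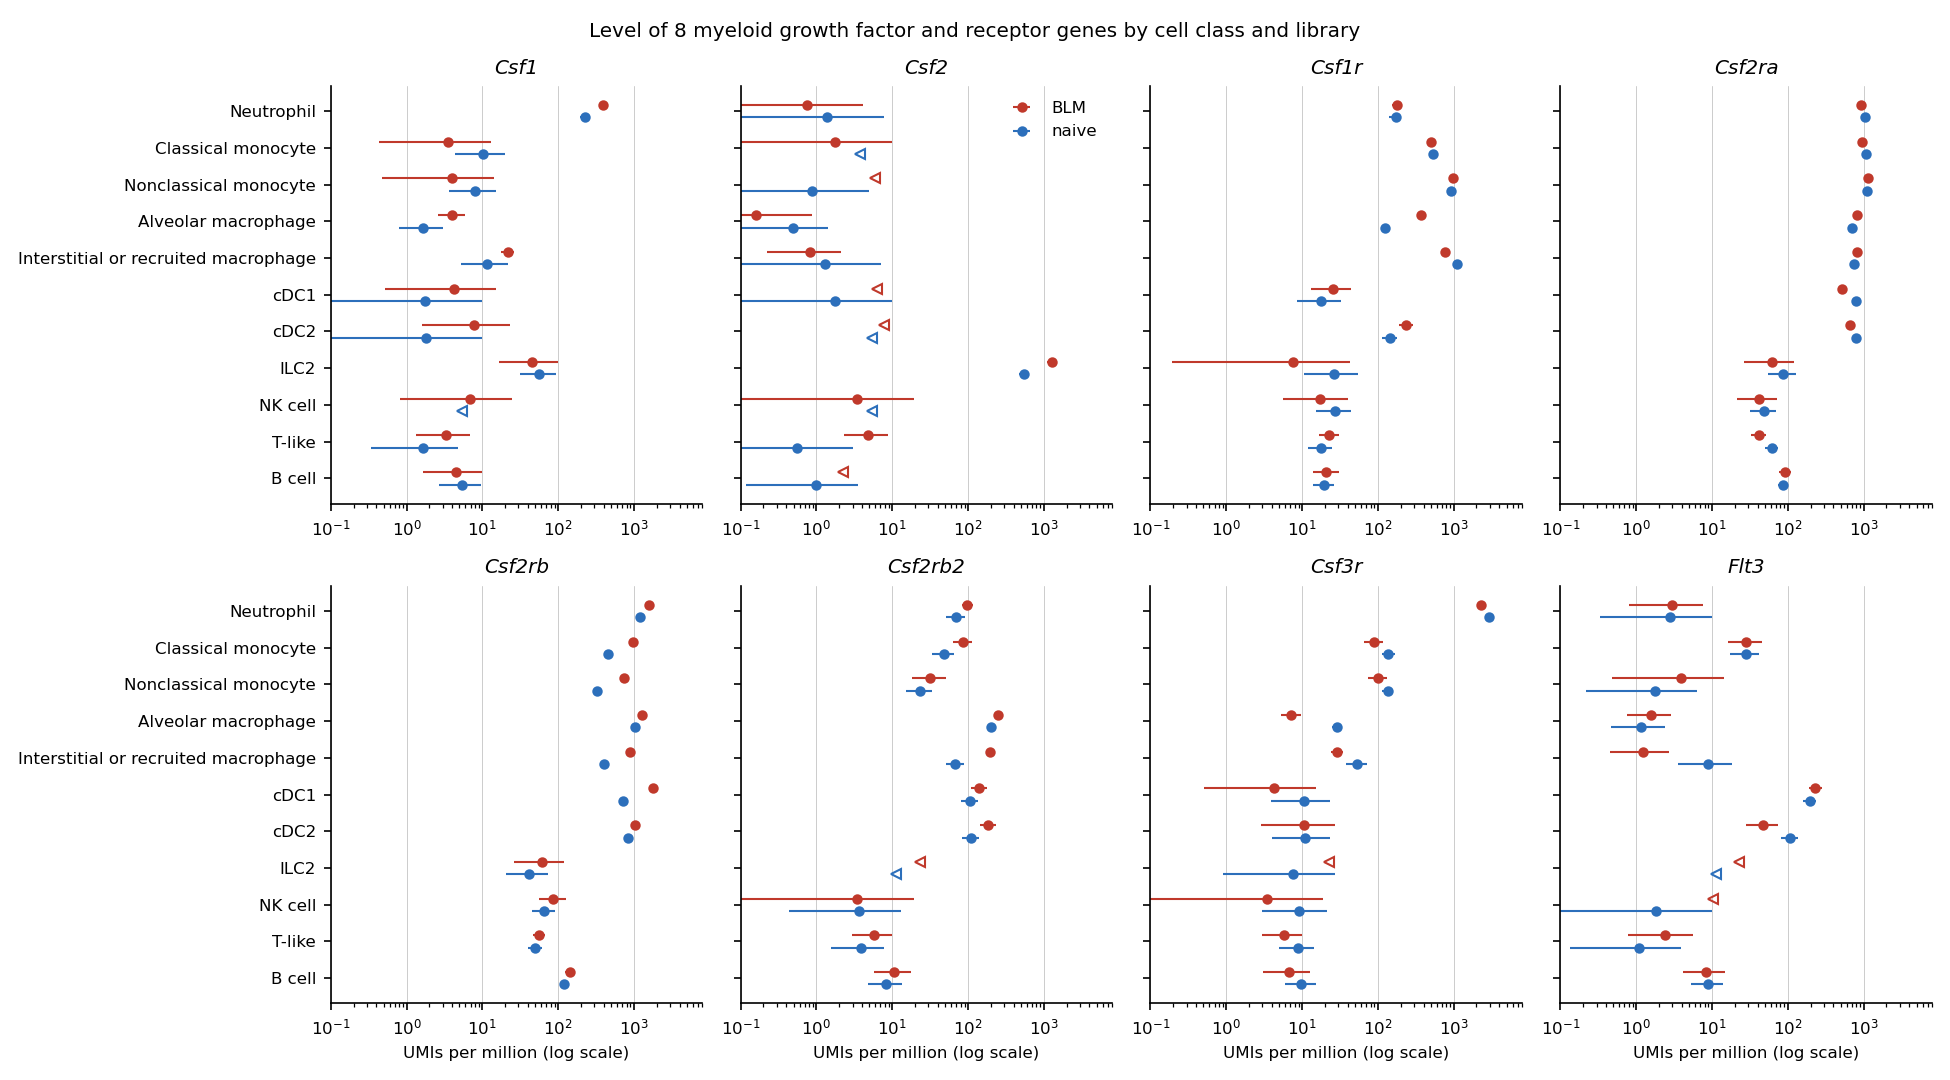
Level of each gene in CPM (horizontal, log scale) in each class (vertical) for the BLM and the naive library, with exact 95% Poisson intervals as bars, which end at the left edge where they run past it. Open triangles mark a count of 0, drawn at the level of 3 counts. Csf2 stands out in ILC2 (1292 CPM in BLM and 550.2 in naive) and Csf3r in neutrophils (2273 and 2963), whereas the GM-CSF receptor chains Csf2ra and Csf2rb are spread over the myeloid classes.

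The ligand Csf1 was found in neutrophils at a higher level in the BLM than in the naive library. Summed over the class, Csf1 amounted to 520 UMIs or 388 CPM [355, 422] in BLM and 165 UMIs or 229 CPM [196, 267] in naive, a log2 ratio of 0.76 [0.50, 1.02]. This is below 2-fold; in neutrophils 2.79% of all genes tested were past 2-fold higher and 5.8% past 2-fold lower. Csf1 UMIs were carried by 204 of 999 BLM neutrophils (20.4%) and 79 of 453 naive neutrophils (17.4%), and single cells held up to 21 and 10 UMIs. B cells, which serve as background, held a Csf1 UMI in 0.943% (median 1654 UMIs per cell) and 1.34% (median 1957), against medians of 1329 and 1580 in neutrophils. After thinning of each cell to 1000 UMIs the shares in neutrophils were 17.6% and 13.9%. Cells with 3 or more Csf1 UMIs numbered 54 and 23. Neutrophils held 64.9% of all Csf1 UMIs of kept cells in BLM and 45.2% in naive. These shares also depend on their number, 999 of 4391 kept cells in BLM and 453 of 3808 in naive.

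Among the named classes, Csf1 exceeded the level of neutrophils only in basophils or mast cells, and it was lower in stromal cells and ILC2. The basophil or mast cell class, which holds only 26 BLM and 7 naive cells, reached 3087 CPM from 53 UMIs in 3 cells and 5634 CPM from 106 UMIs in 6 cells, of which 58 UMIs lay in 1 cell. Its BLM cells were shallow, with a median of 445 UMIs against 2633 in naive. When the class was instead defined by 3 or more of 7 basophil or mast cell markers, a choice made after seeing the data, 4 BLM cells gave 2697 CPM and 10 naive cells 3011 CPM. These levels therefore rest on fewer than 10 Csf1-bearing cells per library. Stromal cells that remained in the CD45+ gate held Csf1 at 167 CPM (17 of 43 cells) and 131 CPM (8 of 25). ILC2 gave 45.9 and 56.5 CPM, from 6 and 15 UMIs.

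In macrophages Csf1 was sparse. Interstitial or recruited macrophages held 106 UMIs in 49 of 489 BLM cells (21.8 CPM) and 9 UMIs in 7 of 126 naive cells (11.5 CPM), a log2 ratio of 0.92 [−0.06, 2.09] that includes 0. Alveolar macrophages gave 25 and 10 UMIs, or 3.96 and 1.64 CPM, a ratio of 1.27 [0.16, 2.49] and past 2-fold. In this class 5.69% of all genes were past 2-fold higher and 9.38% lower. At 3.77% and 1.54% of cells with a UMI and medians of 12634.5 and 9940 UMIs per cell, the alveolar macrophage levels did not exceed those of B cells (4.49 and 5.39 CPM) and are read as background.

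Csf2, which encodes GM-CSF, was found mainly in ILC2, lymphoid cells of mucosal tissue that secrete type 2 cytokines. ILC2 held 169 UMIs in 20 of 38 BLM cells, or 1292 CPM [1104, 1502], and 146 UMIs in 34 of 115 naive cells, or 550.2 CPM [465, 647]. The log2 ratio was 1.23 [0.90, 1.56], past 2-fold higher in BLM, where 3.24% of all genes in this class were past 2-fold higher and 4.09% lower. The ILC2 markers summed to 8912 CPM in BLM and 5589 CPM in naive ILC2, with 6 of 7 higher in BLM. Markers of nonclassical monocytes summed to 3149 and 5502 CPM there, with 0 of 7 higher in BLM. Of these 7, 4 were at 0 in BLM ILC2 and 2 in naive ILC2, so the sum came from few of them. The same markers summed to 1652 and 1455 CPM in B cells and to 1760 and 1109 CPM in NK cells. The part of the marker values of ILC2 in the Csf2 difference was not tested. The share of ILC2 with a Csf2 UMI was 52.6% [35.8, 69.0] and 29.6% [21.4, 38.8]. Median depths were 2966.5 and 2269 UMIs per cell, and after thinning the shares were 42.9% and 21.7%. Among B cells a Csf2 UMI was seen in 0 of 636 BLM cells, a count that allows up to 0.472%, and in 2 of 821 naive cells. Of the Csf2-bearing ILC2, 17 BLM and 15 naive cells held 3 or more UMIs, and the highest cell held 23 and 20, so that no single cell carried most of the signal.

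Summed over all kept cells, by contrast, Csf2 was near equal, at 10.4 and 9.59 CPM with a log2 ratio of 0.11 [−0.19, 0.42], and ILC2 numbered 38 and 115 cells. ILC2 carried 76.8% of the Csf2 UMIs in BLM and 90.1% in naive. Most of the rest in BLM, 32 UMIs, came from 2 cells of 16 UMIs each in the unnamed cluster of 49 cycling lymphocytes, which also held 37 Il5 UMIs, whereas the 30 naive cells of that cluster had 0 UMIs of either gene. T-like cells held 10 Csf2 UMIs in 4 cells of the BLM library, 7 of them in 1 CD8 T cell, and 1 UMI in naive. Alveolar macrophages, whose maturation needs GM-CSF, held 1 and 3 Csf2 UMIs.

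**Figure D2:**
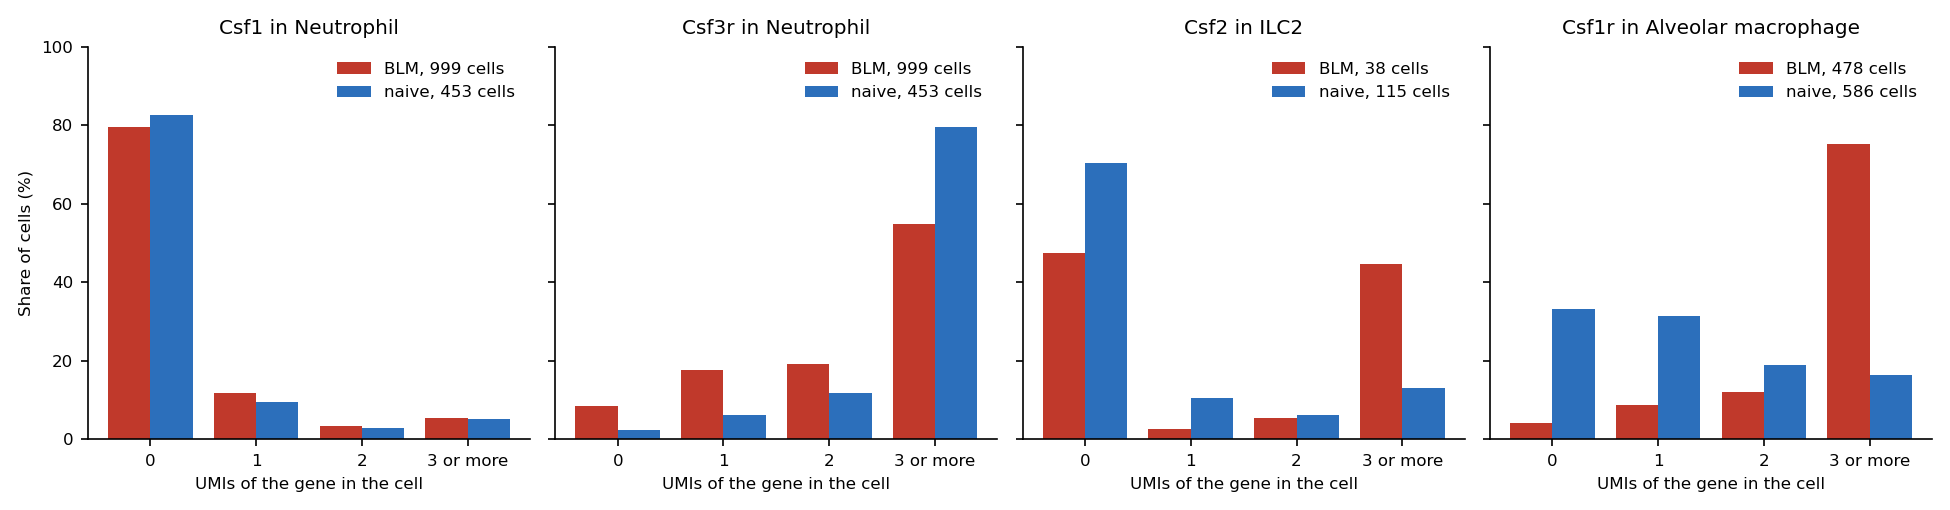
Cells by their number of UMIs of a gene, as a percent of the cells of the class (vertical) in each library, for Csf1 and Csf3r in neutrophils, Csf2 in ILC2 and Csf1r in alveolar macrophages. In ILC2, 17 of 38 BLM and 15 of 115 naive cells held 3 or more Csf2 UMIs, and in alveolar macrophages 360 of 478 and 96 of 586 cells held 3 or more Csf1r UMIs.

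Before the receptors, a limit on the macrophage classes has to be stated. The pairing of BLM and naive alveolar macrophages rested on the integration of the libraries. In the class as used here all 8 alveolar macrophage markers were detected, with a summed level of 13921 CPM in BLM and 17903 in naive, and the 8 markers of interstitial or recruited macrophages summed to 1315 and 529 CPM (7 of 8 higher in BLM). In the interstitial or recruited class the markers of classical monocytes summed to 1517 and 3081 CPM and those of cDC2 to 557 and 1978 CPM. The alveolar macrophage markers summed there to 2068 CPM in BLM and 1083 CPM in naive, with 3 of the 8 higher in BLM. When the libraries were merged without integration, no BLM cell was named alveolar macrophage. All 478 of these BLM cells then joined 402 cells of the interstitial or recruited class in 1 cluster of 933 BLM and 28 naive cells, and 582 of the 586 naive cells stood in a cluster of 621 naive cells. In each of the 2 macrophage classes, 6 of the 10 leading genes lay beyond 2-fold between the libraries, whereas 0 did in neutrophils. This was not particular to macrophages. The number was 6 in the smaller B cell cluster and 0 in the larger, and 5 and 3 in the cDC2 sub-clusters with cells of both libraries. It was 3 in classical monocytes and in cDC1, 2 in ILC2, 1 in nonclassical monocytes and 0 in NK cells. The part of the pairing and of these markers in the macrophage values was not tested. The macrophage values are therefore also given with both macrophage classes and the cycling macrophages as 1 class (1066 BLM and 782 naive cells). That choice was made after seeing the data. Alveolar macrophages gave 6306432 of the 12768982 UMIs of this joint class in BLM and 6080235 of 7728860 in naive. Its ratios therefore also depend on the mix of classes and are not ratios within a class.

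Csf1r, the receptor of CSF1 and IL-34, was highest in nonclassical monocytes and in interstitial or recruited macrophages. Nonclassical monocytes held 489 and 1052 UMIs, or 968 CPM [884, 1058] in BLM and 934 CPM [878, 992] in naive, with a log2 ratio of 0.05 [−0.11, 0.21]. In this class 2.19% of all genes were past 2-fold higher and 2.66% lower. Classical monocytes gave 503 and 536 CPM, a ratio of −0.09 [−0.32, 0.13]. Both intervals include 0, so a difference was not detectable at this depth.

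In the macrophage classes Csf1r differed between the libraries in opposite directions. Alveolar macrophages held 2316 UMIs or 367 CPM [352, 382] in BLM and 750 UMIs or 123 CPM [115, 132] in naive, 2.98-fold higher in BLM with a log2 ratio of 1.57 [1.45, 1.69]. Cells with a Csf1r UMI made up 95.8% of the class in BLM (458 of 478) and 66.7% in naive (391 of 586). Interstitial or recruited macrophages went the other way, with 779 CPM in BLM and 1091 CPM in naive, a ratio of −0.49 [−0.59, −0.38], where 4.52% of all genes were past 2-fold higher and 9.11% lower. With all macrophages as 1 class the level was 515 CPM in BLM and 219 in naive, a ratio of 1.24 [1.16, 1.31], where 5.56% of all genes were past 2-fold higher and 9.9% lower. The ratio of the summed macrophages also depends on the mix of classes, so it is not a second value for the interstitial or recruited class. Without integration the ratio in the class named interstitial or recruited was −1.11, and that class then included the BLM cells named alveolar here. The higher level in alveolar macrophages stood beside higher markers of the other macrophage class. Without integration the naive alveolar cluster held Csf1r at 124 CPM, the mixed BLM cluster at 492 CPM and the remaining interstitial cluster (83 cells in BLM, 67 in naive) at 1296 CPM and 1686 CPM.

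The other bearers held less Csf1r than monocytes and macrophages in BLM. In cDC2 it was 238 CPM in BLM and 143 in naive (log2 ratio 0.74 [0.29, 1.19]), where 4.15% of all genes were past 2-fold higher and 6.35% lower. The cDC2 class joined sub-clusters of unlike origin, with 1 BLM and 59 naive cells in one, 41 and 0 in the next and 13 and 26 in the last, and neutrophil markers summed to 2930 CPM there in BLM and to 769 CPM in naive. Neutrophils were at 177 and 171 CPM (0.05 [−0.27, 0.37]) and cDC1 at 25.5 and 17.8 CPM. T-like cells, taken as background for all receptors with median depths of 2402 and 2511.5 UMIs, held a Csf1r UMI in 5.97% and 4.52% of cells (22.9 and 17.5 CPM), so the cDC1 level is not above background. In BLM the order was nonclassical monocytes, interstitial or recruited macrophages, classical monocytes, alveolar macrophages, cDC2 and neutrophils, with each neighbouring pair apart beyond counting error. In naive the interstitial or recruited macrophages led, followed by nonclassical and classical monocytes. Neutrophils, cDC2 and alveolar macrophages came next, and these neighbours did not differ beyond counting error.

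Csf2ra, the α chain that makes the receptor specific for GM-CSF, was spread over all myeloid classes, and no class was past 2-fold. Nonclassical monocytes were at 1132 and 1100 CPM, classical monocytes at 968 and 1073, neutrophils at 927 and 1035, alveolar macrophages at 829 and 697 and interstitial or recruited macrophages at 820 and 754, BLM first. All 11 classes had enough UMIs. The interval lay above 0 in alveolar macrophages (log2 ratio 0.25 [0.19, 0.31]) and below 0 in 4 classes. These were cDC1 (−0.63 [−0.86, −0.40], 520 and 804 CPM), cDC2 (−0.26 [−0.49, −0.03]), neutrophils (−0.16 [−0.29, −0.02]) and T-like cells (−0.56 [−0.99, −0.15], 41.5 and 61.4 CPM). T-like cells held a Csf2ra UMI in 9.70% and 14.7% of cells.

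Csf2rb, the common β chain, was higher in the BLM library in 7 of the 10 classes that could be compared, by the interval, and lower in none. The 4 classes past 2-fold were cDC1 (1767 and 710 CPM, log2 ratio 1.32 [1.14, 1.49]), nonclassical monocytes (746 and 325 CPM, 1.20 [0.99, 1.41]), interstitial or recruited macrophages (886 and 403 CPM, 1.14 [0.97, 1.31]) and classical monocytes (975 and 462 CPM, 1.08 [0.88, 1.27]). In cDC1 5.36% and in classical monocytes 3.25% of all genes were past 2-fold higher, and 7.2% and 3.33% were lower. In cDC1 the 55 BLM cells gave 832 UMIs, all 55 with at least 1, and the 82 naive cells gave 399 UMIs in 76 cells. Markers of alveolar macrophages summed to 3857 CPM in the BLM and 649.6 CPM in the naive cDC1, but only 1 of the 8 was higher in BLM and 4 were at 0 there. Markers of migratory dendritic cells summed to 376 and 2043 CPM, with 2 of 7 higher in BLM. Markers of interstitial or recruited macrophages summed to 845 and 368 CPM in classical monocytes, with 8 of 8 higher in BLM. In nonclassical monocytes they summed to 293 and 175 CPM, with 7 of 8 higher. Alveolar macrophage markers in classical monocytes summed to 2502 and 1656 CPM, with 2 of 8 higher in BLM. The part of these markers in the Csf2rb differences, and in that of Csf2rb2 in classical monocytes given below, was not tested.

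The classes with the most UMIs showed smaller differences of Csf2rb. Neutrophils held 2106 and 857 UMIs, with a log2 ratio of 0.40 [0.28, 0.51], and alveolar macrophages 8099 and 6252 UMIs (1284 and 1028 CPM), with 0.32 [0.27, 0.37]. In cDC2 the ratio was 0.32 [0.12, 0.52]. With the macrophages as 1 class the ratio was 0.22 [0.18, 0.26]. This lay below the ratios of both the alveolar and the interstitial or recruited class, and it also depends on their mix. The interstitial or recruited class was below 2-fold with doublets kept and with a limit of 10% on mitochondrial UMIs, at 0.93 in both. Without integration the interstitial or recruited class, which then took in the BLM cells named alveolar here, had a ratio of 1.40 [1.22, 1.58], and its cluster of 83 BLM and 67 naive cells was at 408 and 244 CPM. Of the smaller classes, basophils or mast cells held 1689 CPM from 29 UMIs in BLM and 6166 CPM from 116 UMIs in naive. Migratory dendritic cells held 1294 and 1756 CPM and plasmacytoid dendritic cells 567 and 738 CPM, with a ratio of −0.44 [−0.69, −0.19] in the former and an interval that includes 0 in the latter. T-like cells were at 55.8 and 49.3 CPM, with a UMI in 13.1% and 12.1% of cells.

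Csf2rb2, the second mouse β chain gene, was found in the dendritic, macrophage and basophil or mast cell classes and also in neutrophils and monocytes, with none in ILC2. The highest level, 1595 CPM [1076, 2276], came from 30 UMIs in 6 of only 7 naive cells of the basophil or mast cell class, whose 26 BLM cells held 5 UMIs (291 CPM). Next came the small classes of migratory dendritic cells (375 CPM from 69 BLM cells and 582 CPM from 15 naive cells) and plasmacytoid dendritic cells (374 and 577 CPM). Among the compared classes alveolar macrophages led with 251 CPM [239, 264] in BLM and 200.2 CPM [189, 212] in naive, from 1584 and 1217 UMIs, a log2 ratio of 0.33 [0.22, 0.44]. Interstitial or recruited macrophages were past 2-fold higher in BLM (1.51 [1.11, 1.94]), with 940 UMIs giving 193 CPM there and 53 UMIs giving 67.8 CPM in naive. Over all macrophages the ratio was 0.29 [0.19, 0.38].

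The interval for Csf2rb2 lay above 0 in 5 of 8 comparable classes and below 0 in none. The other three were cDC2 (183 and 108 CPM, 0.76 [0.24, 1.28]), classical monocytes (85.6 and 48.0 CPM, 0.84 [0.19, 1.49]) and neutrophils (98.4 and 69.5 CPM, 0.50 with a lower bound of 0.02). For cDC1 the levels were 140.2 and 107 CPM and the interval of the ratio included 0. ILC2 held 0 Csf2rb2 UMIs in both libraries, which allows up to 22.9 CPM in BLM and 11.3 CPM in naive. T-like cells held a UMI in 1.49% and 1.02% of cells.

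Both chains of the GM-CSF receptor were detected together in most macrophages and conventional dendritic cells. A UMI of Csf2ra and a UMI of Csf2rb in the same cell were found in 99.4% of BLM and 98.3% of naive alveolar macrophages, 92.7% and 90.2% of cDC1 and 90.9% and 88.2% of cDC2. For interstitial or recruited macrophages the shares were 90.8% and 67.5%, at medians of 9219 and 5265.5 UMIs per cell. Classical monocytes had 81.3% and 76.7%, nonclassical monocytes 72.2% and 61.1%, and neutrophils 49.5% and 55.4%. T-like cells had 1.12% and 1.46%. Depth differs between these classes by several fold, and a shallow cell can miss a transcript it holds, so no order of classes is read from these shares.

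**Figure D3:**
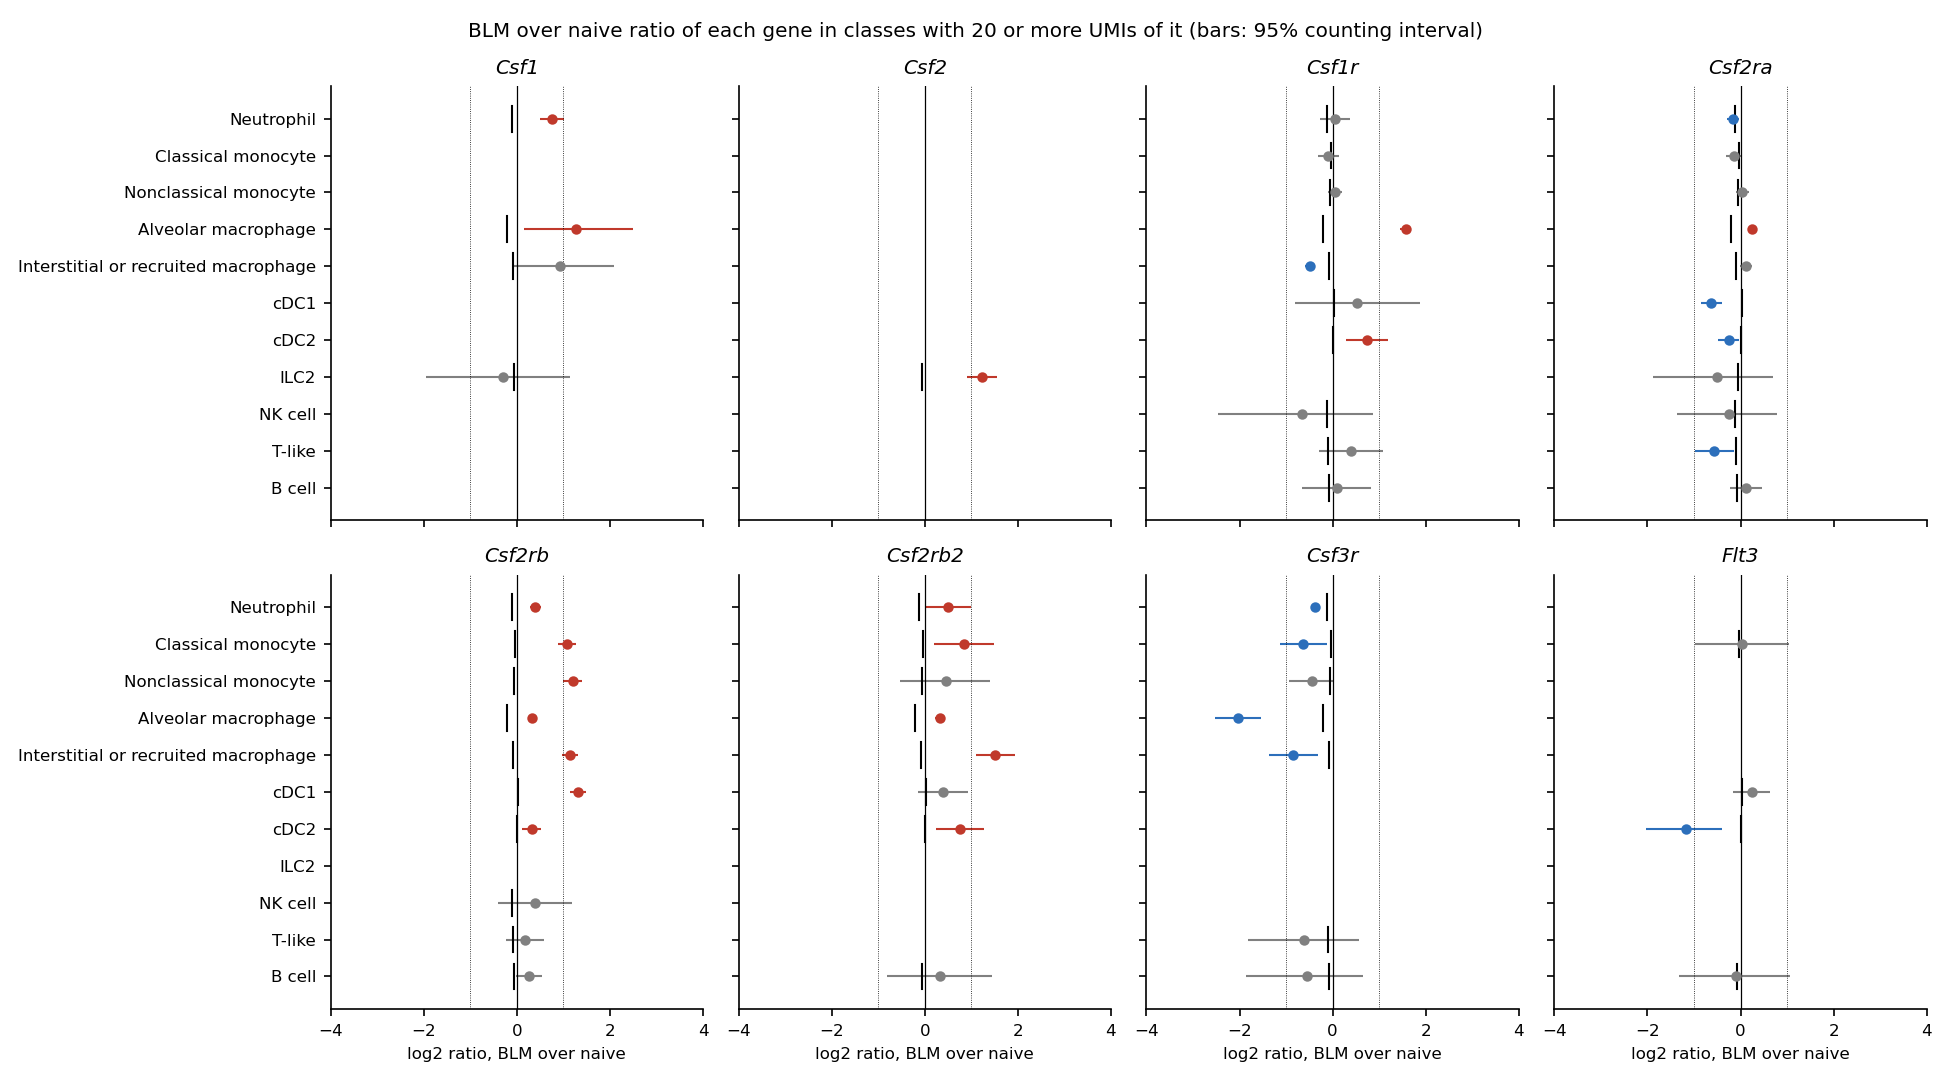
Log2 ratio of the BLM to the naive level (horizontal) for each gene and class with 20 or more UMIs, with exact conditional 95% intervals as bars, a line at 0 and dotted lines at 2-fold. Intervals above 0 are red, those below 0 blue and others grey, and short black ticks mark the median of all genes of the class. Csf2rb lies at or above 1 in cDC1, nonclassical monocytes, interstitial or recruited macrophages and classical monocytes, Csf1r lies at 1.57 in alveolar macrophages, and Csf3r in alveolar macrophages (−2.03) and Flt3 in cDC2 (−1.18) are past 2-fold lower.

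Csf3r, the G-CSF receptor, marked neutrophils and was lower in BLM neutrophils by less than 2-fold. Neutrophils held 3049 UMIs or 2273 CPM [2193, 2355] in BLM and 2131 UMIs or 2963 CPM [2839, 3092] in naive, a log2 ratio of −0.38 [−0.46, −0.30]. A UMI was found in 91.6% and 97.6% of neutrophils, and after thinning in 86.1% and 93.1%. Cells with 3 or more UMIs numbered 547 of 999 and 361 of 453. The 7 neutrophil markers summed to 43465 CPM in BLM and 41154 CPM in naive neutrophils, with 2 of the 7 higher in BLM, and their part in the Csf3r difference was not tested. Over all kept cells the level was equal within counting error, 160 and 159 CPM, with neutrophils holding 90.0% and 79.5% of the UMIs.

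Outside neutrophils Csf3r was low and in each class with an interval off 0 it was lower in BLM. Classical monocytes were at 89.1 and 138 CPM (log2 ratio −0.63 [−1.14, −0.13]), interstitial or recruited macrophages at 29.0 and 52.5 CPM (−0.86 [−1.37, −0.32], and −1.63 without integration), and nonclassical monocytes at 99.0 and 135 CPM (−0.45 [−0.94, 0.02]), the last with an interval that includes 0. Alveolar macrophages held 45 and 177 UMIs, or 7.14 and 29.1 CPM, a ratio of −2.03 [−2.53, −1.55] and the only Csf3r difference past 2-fold. The 7 neutrophil markers summed in that class to 274 CPM in BLM and 209 CPM in naive, with 4 of the 7 higher in BLM. Their part in the Csf3r difference was not tested. T-like cells held a Csf3r UMI in 1.49% and 2.19% of cells (5.72 and 8.77 CPM), near the BLM level of alveolar macrophages. Over all macrophages the ratio was −0.96 [−1.24, −0.67].

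Flt3, the receptor of the dendritic cell growth factor FLT3 ligand, was found in dendritic cells of every class. In cDC1 it was at 231 CPM [190, 279] in BLM and 196 CPM [161, 236] in naive, from 109 and 110 UMIs, a log2 ratio of 0.24 [−0.15, 0.64] that includes 0. The share of cDC1 with a UMI was 80.0% (44 of 55) and 61.0% (50 of 82), at medians of 8194 and 6688.5 UMIs, and 20.5% and 16.3% after thinning. Plasmacytoid dendritic cells were at 250 and 242 CPM from 22 and 18 UMIs, and migratory dendritic cells at 204 CPM in each library from 90 and 20 UMIs. These 3 classes were not distinguishable from one another in either library.

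In cDC2 Flt3 was past 2-fold lower in BLM, at 47.1 CPM from 18 UMIs in 15 of 55 cells and 106 CPM from 59 UMIs in 37 of 85 cells, a log2 ratio of −1.18 [−2.03, −0.40]. The sub-clusters behind this class differed between the libraries as given for Csf1r. Classical monocytes were near 28 CPM in both libraries (28.5 and 27.8, a ratio of 0.04 [−0.99, 1.03]). The cycling macrophage-like cells held 10 UMIs in BLM against 26 in naive (−2.26 [−3.48, −1.16]). T-like cells held a UMI in 0.622% and 0.292% of cells.

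The rest of the pathway was described from a list of 45 genes, of which 37 are not among the 8. These are other ligands and receptors, kinases and adaptors, transcription factors, feedback inhibitors and induced targets. Over the 11 classes, 18 of 282 comparisons of these genes were past 2-fold higher in BLM (6.38%) and 22 past 2-fold lower (7.8%), against 3.29% and 5.51% of all genes. With scaling to the median ratio of each class the split was 21 and 17. Alveolar macrophages had 4 higher and 3 lower of 29 genes tested, where 5.69% and 9.38% of all genes were called. Interstitial or recruited macrophages had 1 and 4 of 32 (4.52% and 9.11% of all genes), cDC1 had 1 and 6 of 25 (5.36% and 7.2%), and cDC2 had 4 and 4 of 26 (4.15% and 6.35%). B cells had 0 of 28 in either direction, where 1.16% of all genes were past 2-fold higher and 3.71% lower. The median log2 ratio of the list was −0.25 in alveolar macrophages, −0.29 in interstitial or recruited macrophages and −0.47 in cDC1, against −0.20, −0.09 and 0.03 over all genes tested there.

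Among the feedback inhibitors, which JAK and STAT signals induce, Socs3 was past 2-fold higher in BLM alveolar macrophages (58.0 and 9.05 CPM, log2 ratio 2.68 [2.27, 3.12]), classical monocytes (1.75 [1.35, 2.15]), nonclassical monocytes (1.60 [1.24, 1.97]) and T-like cells (1.18 [0.91, 1.45]). It was past 2-fold lower in BLM cDC1 (−1.21 [−2.01, −0.47]). Cish was past 2-fold higher in alveolar macrophages (1.05 [0.74, 1.37], from 269 and 125 UMIs), neutrophils (2.04 [0.81, 3.56], from 46 and 6 UMIs), nonclassical monocytes (1.69 [0.77, 2.64]), cDC1 (1.79 [0.71, 2.99]) and cDC2 (1.20 [0.56, 1.87]). Socs2 was past 2-fold higher in alveolar macrophages (1.09 [0.90, 1.27]), interstitial or recruited macrophages (2.32 [1.56, 3.20]) and NK cells (2.77 [1.29, 4.56], from 18 and 5 UMIs). The phosphatase gene Ptpn6 was lower in cDC2 (54.9 and 110.1 CPM). In T-like cells 2.04% of all genes were past 2-fold higher and 3.03% lower, and in NK cells 1.27% and 2.89%.

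Of the signalling genes, Stat3 was past 2-fold lower in 5 classes. These were neutrophils (239 and 498 CPM, −1.06 [−1.28, −0.84]), interstitial or recruited macrophages (−1.46 [−1.67, −1.25]), NK cells (−1.10 [−1.41, −0.80]), cDC1 (−1.06 [−1.54, −0.59]) and cDC2 (−1.66 [−2.10, −1.23]). It was also lower, by less than 2-fold, in alveolar macrophages (−0.94 [−1.07, −0.82]), T-like cells (−0.46), nonclassical monocytes (−0.43), classical monocytes (−0.34) and B cells (−0.30), with intervals below 0. Stat5b was past 2-fold lower in NK cells (−1.02 [−2.02, −0.12]) and Stat5a in cDC1 (−1.46 [−2.93, −0.19]). The adaptor gene Gab2 was higher in cDC2 (1.10 [0.25, 1.97]). The kinase gene Jak2 was higher in neutrophils (248 and 89.0 CPM, 1.48 [1.09, 1.89]).

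The transcription factor gene Cebpa, which drives myeloid differentiation, was lower in alveolar macrophages (259 and 523 CPM, −1.02 [−1.10, −0.93]) and in cDC1 (−1.95 [−3.27, −0.83]). It was also lower in cDC2 (−1.36 [−2.81, −0.12]) and in T-like cells (−1.35 [−2.67, −0.15]). The 8 alveolar macrophage markers summed to 234 and 495 CPM in T-like cells, with 0 of 8 higher in BLM. Their part in the Cebpa difference there was not tested. Irf8 was higher in cDC2 (1.28 [0.54, 2.06]). Among ligands, Il5 in ILC2 was at 2446 CPM from 320 UMIs in BLM and 426 CPM from 113 UMIs in naive, a log2 ratio of 2.52 [2.21, 2.84]. Kitl and Csf3 were lower in interstitial or recruited macrophages (−1.58 [−2.16, −0.97] and −1.13 [−2.07, −0.09]) and Flt3l in alveolar macrophages (−1.64, from 8 and 24 UMIs). Receptors past 2-fold higher were Il3ra in alveolar macrophages (1.35 [0.82, 1.92]) and Kit in cDC2 (1.31 [0.55, 2.10]). Of the induced targets, Myc was lower in alveolar macrophages (−1.05 [−1.53, −0.59]) and cDC1 (−1.20 [−2.29, −0.21]), Mcl1 in cDC1 (−1.09 [−1.29, −0.90]) and Ccnd1 in interstitial or recruited macrophages (−1.84 [−2.14, −1.54]) and cDC2 (−1.01 [−1.34, −0.69]). The values of Socs3, Stat5a and Myc in cDC1, Gab2 and Cebpa in cDC2, Cish in alveolar macrophages, Csf3 in interstitial or recruited macrophages and Stat3 under 2-fold lay outside the rule for named genes and were chosen after they were seen.

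**Figure D4:**
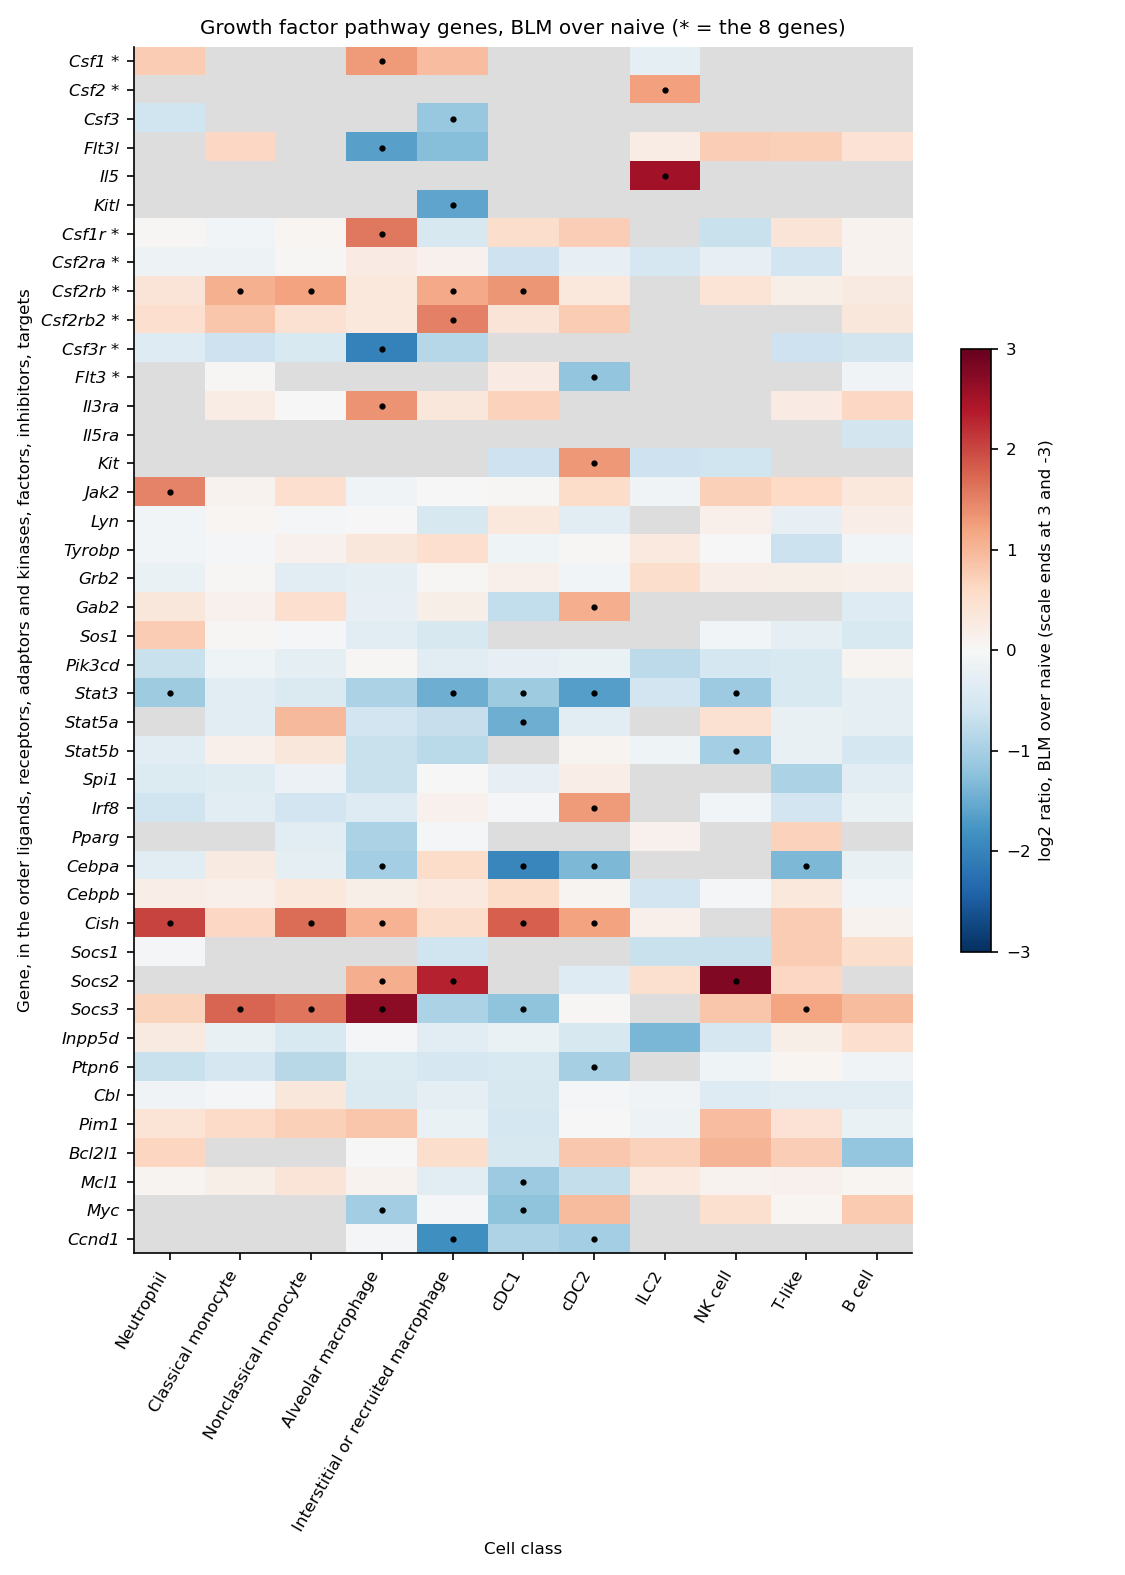
Log2 ratio of the BLM to the naive level for pathway genes (rows, the 8 genes starred) in the 11 classes (columns), from blue (lower in BLM) to red (higher), with dots where the difference is past 2-fold and grey where the class held fewer than 20 UMIs of the gene. Stat3 is lower in 5 classes past 2-fold, and Socs3 reaches 2.68 in alveolar macrophages.

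For each of the 8 genes, the 3 genes most like it were sought over 22 sums (11 classes in 2 libraries) among 9710 genes, by Pearson correlation of log2(CPM + 10). The sums share the 2 libraries, so this is a description. Csf2 was most like Il5 (r = 0.99), Mns1 (0.97) and Spry1 (0.97), and Csf3r was most like Vnn3 (0.98), F630028O10Rik (0.96) and Slc16a3 (0.96). Csf1r was most like Zeb2os (0.93), Clec4a3 (0.91) and Adgre1 (0.91), the last of which encodes the macrophage antigen F4/80. Csf2ra was most like Alox5ap (0.99), Tgfbi (0.96) and Il13ra1 (0.96). Csf2rb was most like Rbm47 (0.96), Skap2 (0.95) and Stx12 (0.94), and Csf2rb2 most like Slc6a6 (0.95), Atp6ap2 (0.94) and its neighbour Csf2rb (0.94). Csf1 was most like Braf (0.89), Adgrg3 (0.89) and Ggt5 (0.88), and Flt3 most like Ifi205 (0.89), Tspan33 (0.88) and Nccrp1 (0.88).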

How the data were processed

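Single-cell RNA-seq of sorted lung CD45+ cells was analysed from 1 BLM and 1 naive library. The authors deposited whole-number counts, 1 table of UMIs per cell and gene for each library. Per the file headers, BD's Rhapsody WTA Analysis Pipeline 1.8 made them with GRCm38 and GENCODE vM19 and corrected UMI errors. The tables held the barcodes called as cells, with 4714 BLM barcodes (22490782 UMIs) and 4062 naive barcodes (18019004 UMIs), and the authors' later filter in SeqGeq was not used here. Genes missing from 1 table were set to 0 there. A barcode passed (4526 and 3925 did) if it had at least 200 genes and no more than 15% of its UMIs were mitochondrial. Doublets were scored with Scrublet (scanpy 1.11.5), whose automatic calls numbered 8 and 61, so the highest-scoring 3% were left out instead (135 and 117 cells).

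Libraries were integrated by canonical correlation in Seurat 5.3.0 (R 4.3.3) with 2000 variable genes, 30 dimensions and resolution 0.5. T-like clusters (Cd3e UMI in 50% or more of cells) were integrated again with 20 dimensions, and unnamed clusters not led by cell-cycle genes were clustered again with 10. Clusters were named by the marker list with the highest mean z score, or by the list with most genes among the 10 leading genes. They stayed unnamed with fewer than 3 markers detected, a score under 0.3, a gap under 0.1, 3 or more cell-cycle genes among the leading genes or no marker of the name among them (the last condition was set after seeing the clusters). These names were rebuilt here and can differ from those of the study.

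Levels have exact Poisson intervals, shares Clopper-Pearson intervals, and ratios exact conditional intervals (scipy 1.17.1), all at 95%. For a count of 0 the limit was set at 3 counts over the class. Cells were thinned to 1000 UMIs, and shallower cells were left out. The scripts were tested on simulated data. With 1 library per group no test was run.

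The 8 genes were always named. Of the other pathway genes, at most 3 in each direction per class were named among those past 2-fold, by the end of the interval nearer 0. The values of 1 pathway gene are not reported here, although it is included in the counts over the list. Likeness used genes with 200 or more UMIs. The 8 genes, the pathway list and the markers were chosen with earlier results of these data known. The alternatives covered filters, doublets, integration, resolution, scaling, weighting of cells, thinning and the treatment of macrophages.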

Additional observations from a re-analysis of the deposited data

Results flagged for a closer look

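Csf1r was higher in BLM alveolar macrophages (log2 ratio 1.57) and lower in BLM interstitial or recruited macrophages (−0.49), so that these classes moved in opposite directions with intervals that leave out 0. Csf2ra likewise was higher in BLM alveolar macrophages (0.25) and lower in BLM cDC1 (−0.63). Neither difference between classes was tested, because there was 1 library per group.

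In clusters that carry no class name, and so lie outside the comparisons, 6 levels were higher in BLM with an interval that left out 0, among genes with 20 or more UMIs. Csf1r reached 297 CPM in 99 BLM cycling macrophage-like cells, against 103 CPM in 70 naive cells. In the same cells Csf2rb was at 848 and 654 CPM, Csf2rb2 at 135 and 104 CPM and Csf2ra at 624 and 557 CPM, each by less than 2-fold. Csf1r also reached 326 CPM, from 22 UMIs, in 55 BLM cells of a cluster with few UMIs per cell, against 93.4 CPM from 4 UMIs in 28 naive cells. Csf2 reached 83.4 CPM in 49 BLM cycling lymphocytes, from 2 cells, against 0 UMIs in 30 naive cells.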

How the results depend on the processing

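No paired analysis was possible because each group had 1 library. For the 8 genes in their highest compared class, 7 settings moved a ratio by less than its counting interval, namely doublets kept, the 10% mitochondrial limit, the 500-gene minimum, resolution 1.0, the 8 genes allowed among the variable genes, scaling without mitochondrial and ribosomal protein genes, and equal weight per cell. Leaving out the 1 cell with most UMIs of the gene, chosen after seeing the data, did the same. Without integration Csf1r in nonclassical monocytes had a log2 ratio of 0.23, and alveolar macrophages gave no value, since 0 BLM and 621 naive cells took that name. Scaling to the class median gave 0.53 for Csf2rb2 in alveolar macrophages and −0.27 for Csf3r in neutrophils. Over all 55 comparisons, the interval was exceeded in 7 of 49 without integration, 5 of 55 with median scaling, 2 of 55 with doublets kept and 2 of 55 with the 10% limit. With the macrophages as 1 class, added after seeing the data, 5 of 12 were moved. Csf1r, at −0.49 in interstitial or recruited macrophages, was at 1.24 in the joint class, a value that also depends on the mix of classes. Without integration the interstitial or recruited class, which then included the BLM cells named alveolar here, had −1.11 for Csf1r, 1.40 for Csf2rb and −1.63 for Csf3r. After thinning, shares in the BLM and naive library were 17.6% and 13.9% for Csf1 and 67.0% and 61.2% for Csf2rb in neutrophils, 86.1% and 93.1% for Csf3r in neutrophils, 62.7% and 60.1% for Csf1r and 66.5% and 65.4% for Csf2ra in nonclassical monocytes, 21.9% and 18.0% for Csf2rb2 in alveolar macrophages and 20.5% and 16.3% for Flt3 in cDC1. The pathway genes past 2-fold numbered 18 higher and 22 lower, 15 and 15 with 50 or more UMIs, 22 and 22 with 1 or more, and 21 and 17 with median scaling. Depth limited Csf1 in alveolar macrophages (25 and 10 UMIs) and Flt3 in cDC2 (18 and 59 UMIs).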
